A study of Mus musculus with 6 samples.

Results

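The circadian clock genes described here are Nr1d1, Nr1d2, Per1, Per2, Per3, Cry1, Cry2, Clock, Arntl (also called Bmal1) and Dbp. They are 10 of the 54532 genes in the count table. The group was chosen by the difference of Nr1d2 between the 2 bone marrow regions and filled with the other core clock genes by name. The values of Nr1d2 in this comparison are therefore a description with no test, and the question asked of the other 9 genes is whether they share its difference.

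The RNA-seq libraries were made from mouse acute myeloid leukemia (AE9a) cells that express the AML1-ETO9a fusion from a retrovirus that also marks them with GFP. The cells came from AE9a leukemia mice of the C57BL/6 strain, which were third-generation transplant recipients. Mice were bought at 6 to 8 weeks of age, and the age at collection and the time of day of collection were not given in the sources used here. In 3 libraries the cells were obtained by flushing femurs and tibias (central bone marrow, CBM), and in 3 they were released from the flushed bones by warm collagenase digestion (endosteal bone marrow, EBM). Region and digestion coincide in every library and cannot be told apart. The labels give no difference in genotype or drug between the groups, and the number of mice behind a library was not given. The sorted cells were kept in serum-containing medium before and after sorting.

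The molecular clock is a transcription feedback loop that runs in most cells. CLOCK and ARNTL bind E-boxes as a pair and switch on the Per, Cry, Nr1d and Dbp genes. PER and CRY proteins then repress CLOCK and ARNTL, while the REV-ERB receptors made by Nr1d1 and Nr1d2 compete with ROR receptors to repress Arntl. Dbp encodes a factor that binds D-boxes, among others in Per genes. In bone marrow the clock is known to time the release of blood stem cells and leukocytes, and Per1 is also known as a gene induced within minutes to hours by glucocorticoids and by cAMP signaling through CREB.

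All 10 clock genes were counted in all 6 libraries and passed the filter on low counts. Total counts per library lay between 16436526 and 19462964, and the floor of 3 counts corresponded to between 0.149 and 0.193 CPM, the count relative to the TMM-scaled library size. The least counted member was Dbp, with 21 to 54 counts, and the most counted was Per1, with 1517 to 4496. Of 7 listed progenitor markers, Kit and Myb were well counted. Kit, the stem cell factor receptor, had a mean of 219.7 ± 8.15 CPM over the CBM and 220.4 ± 22.1 CPM over the EBM libraries (SD, n = 3 each). Myb, a transcription factor of progenitors, had 314.8 ± 7.20 and 301.5 ± 44.2 CPM. The sum of the 7 was 560.5 to 587.4 CPM in CBM and 573.4 to 597.1 CPM in EBM, most of it from Kit and Myb. Gfi1 and Flt3 were too low to test. Of the 5 tested, 4 had a positive and 1 a negative log2 fold change, with a median of 0.26. By edgeR 0 of them had an unadjusted p under 0.05. Summed erythroid markers, led by Hba-a1, reached 2037 to 5434 CPM in CBM and 2467 to 3766 CPM in EBM, so the ranges of the regions overlapped. Neutrophil markers, led by S100a9, ranged from 3.67 to 229.9 CPM in CBM and from 35.4 to 166.7 CPM in EBM. Osteoblast markers other than Runx2 were scarce, with 5 of 9 at no more than 3 counts in any library and Alpl, Bglap2 and Sp7 at 0 counts in all. Runx2 itself had 9.29 ± 2.22 CPM in the CBM and 7.94 ± 1.23 CPM in the EBM libraries. Summed stromal (led by Lepr), endothelial (Kdr), macrophage (Vcam1), B cell (Cd79b) and T cell (Trac) markers were each at 14.6 CPM or less in every library, and no marker list separated the regions by its sum. The part of other cells in the results below was not tested.

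The promoters of Nr1d2 and Per1 are shown first, because these were the members that stood higher in all EBM libraries. Windows of 300 bases around RefSeq transcript starts on GRCm38.p6 were searched on both strands for 4 motifs: the E-box CACGTG, the ROR/REV-ERB core TNGGTCA, the D-box TTATGNAA and the cAMP response element TGACGTCA, where N is any base. Of the 10 clock genes 9 had windows, 13 in all. In the Per1 stretch the capitals mark an E-box and a D-box, and the Nr1d2 stretch held none of the 4 motifs and is all in lower case. Both stretches run 5′ to 3′ on the strand of the gene and stop before the first base of an annotated exon.
Nr1d2, chr14:18239128-18239356, minus strand: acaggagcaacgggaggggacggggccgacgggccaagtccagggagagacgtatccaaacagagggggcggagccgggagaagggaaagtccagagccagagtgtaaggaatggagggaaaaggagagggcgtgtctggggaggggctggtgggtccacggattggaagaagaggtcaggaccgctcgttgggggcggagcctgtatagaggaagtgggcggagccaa
Per1, chr11:69098699-69098947, plus strand: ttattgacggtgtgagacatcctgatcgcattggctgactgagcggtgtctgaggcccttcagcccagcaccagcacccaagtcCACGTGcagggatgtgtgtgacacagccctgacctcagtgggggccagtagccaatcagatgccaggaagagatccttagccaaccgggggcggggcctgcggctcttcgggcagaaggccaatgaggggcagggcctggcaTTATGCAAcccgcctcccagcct

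The E-box of Per1 began 166 bases before the transcript start and its D-box 24 bases before it. A second Per1 window, at a start further into the gene, held none of the 4 motifs. Cry1 was the other clock gene with an E-box in its window, 60 bases before the start. E-boxes occurred in 7.15% of the 32851 promoter windows of all genes, so a match is a common feature and only a description. Per3 held 2 D-boxes, at 205 and 158 bases before its start, where 3.38% of all windows held one. The ROR/REV-ERB core occurred in windows of Arntl, Cry2 and Per3, and in 11% of all windows. One match in Arntl lay 31 bases after its second start, and is shown because Arntl is the known target of the REV-ERB receptors, with the core in capitals.
Arntl, chr7:113207533-113207553, plus strand: gcagaaagTAGGTCAgggacg

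No window of a clock gene held the full cAMP response element, which occurred in 1.79% of all windows. These short windows do not cover distal sites.

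Levels between genes were compared as TPM, which divides counts by the gene length in the table and scales every library to the same sum. Per1, the most strongly expressed member, had a mean of 86.9 TPM over the 6 libraries and ranged from 48.6 to 144.8 TPM. Cry2 followed with 27.9 to 34.6 TPM and Cry1 with 14.2 to 20.8 TPM. The ranges of these 3 genes did not overlap with each other or with those of the other members. Below them Per2, Per3, Nr1d2, Nr1d1, Arntl, Clock and Dbp had means between 2.44 and 8.67 TPM, and each overlapped in range with its neighbor in this order. By mean TPM, Nr1d2 ranked 8 of 10 in CBM and 4 of 10 in EBM, while Per1, Cry2 and Cry1 ranked 1, 2 and 3 in both regions.

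Nr1d2 encodes REV-ERBβ, a heme-binding nuclear receptor that represses transcription. It lies on the minus strand of chromosome 14 (18204054 to 18239127, GRCm38), with 4 annotated transcripts of up to 8 exons, and no other annotated gene overlaps it. CBM replicates 1 to 3 held 121, 100 and 106 Nr1d2 counts, and the EBM replicates held 280, 349 and 227. In CPM this was 6.89, 5.26 and 5.26 in CBM and 15.5, 19.4 and 14.6 in EBM. Every EBM library lay above every CBM library, and the lowest EBM value exceeded the highest CBM value by more than the whole range within CBM. The CBM mean was 5.80 ± 0.937 CPM and the EBM mean 16.5 ± 2.58 CPM (SD, n = 3 each), 2.84 times as high. Its log2 fold change of 1.51 had a standard error of 0.19, and 78 of the 13352 genes tested had a larger one. In bulk RNA, more cells with the transcript and more transcript per cell cannot be told apart, for this and for the following genes.

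**Figure D1:**
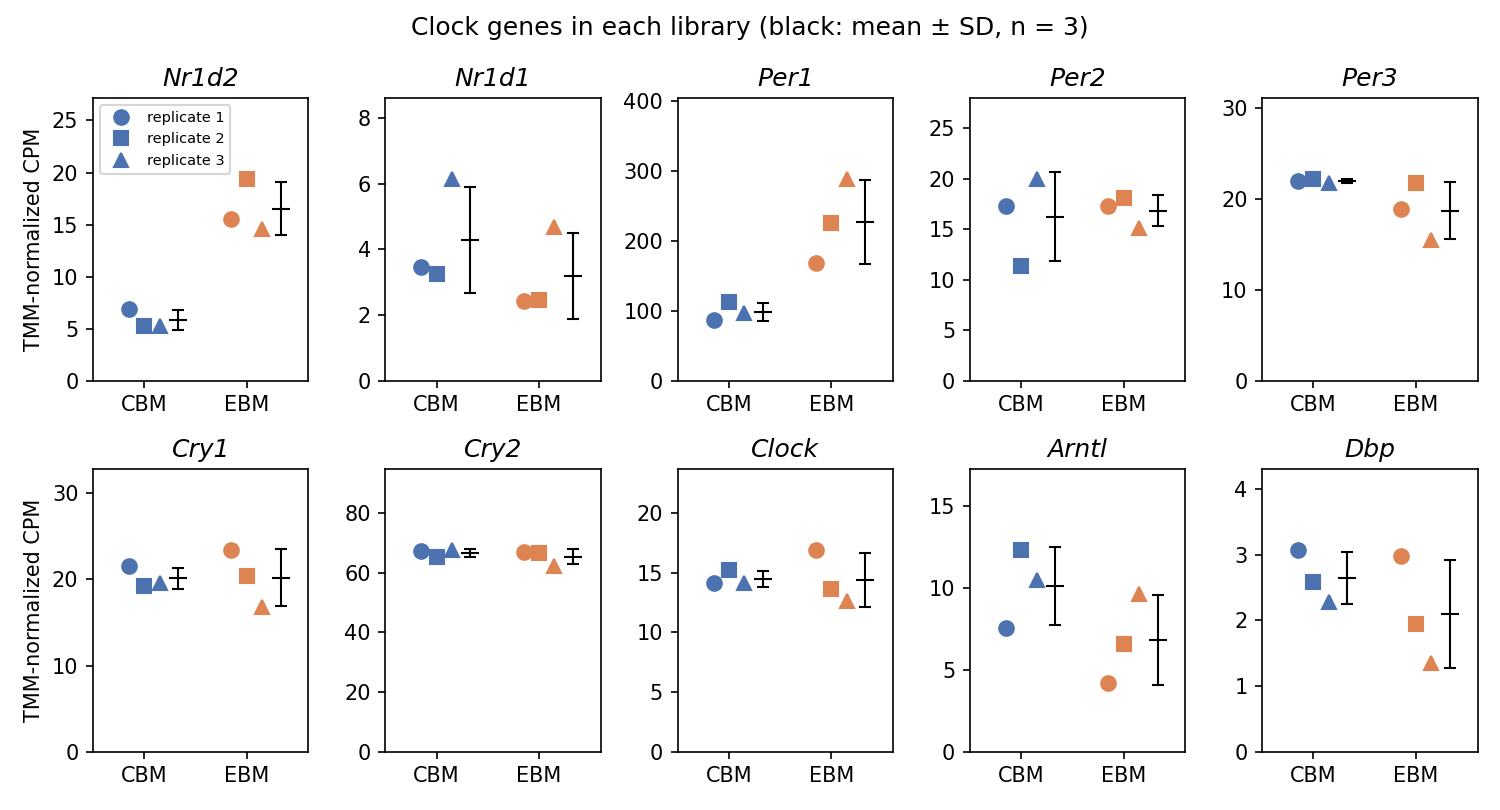
TMM-normalized CPM of the 10 clock genes in each library, with CBM in blue and EBM in orange, replicate numbers by marker shape, and the mean ± SD (n = 3) in black. Every y axis starts at 0 and has its own scale. Nr1d2 and Per1 lie higher in all 3 EBM libraries than in any CBM library, and the regions overlap in the others apart from Per3, where EBM lies lower by a small margin.

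Across all genes, edgeR's quasi-likelihood test called 0 of 13352 genes at an adjusted p under 0.05 (0%), so no clock gene passed this threshold. Before adjustment 1056 genes (7.91%) had a p under 0.05, made up of 4.01% with higher and 3.90% with lower EBM values. Of the 9 clock genes other than Nr1d2, 1 was higher (Per1) and 0 were lower at this level. By non-overlap of CPM, 1 of the 9 was above in EBM (Per1) and 1 below (Per3), where 7.47% of all tested genes were above and 7.65% below. Of the 9 genes 3 had a positive and 6 a negative log2 fold change, with a median of -0.03 beside 0.00 over all genes tested. A single gene of 9 is too few to set apart from these background shares.

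Per1 was thus the clock gene whose values came closest to those of Nr1d2. It encodes a PERIOD repressor of the clock and lies on the plus strand of chromosome 11 (69095217 to 69109960), with 6 annotated transcripts and no overlapping gene. Per1 stood at 86.3, 112.4 and 97.4 CPM in the CBM libraries, against 167.8, 224.9 and 288.9 CPM in the EBM libraries. All EBM libraries lay above all CBM libraries, although EBM spread over a wide range. The CBM mean was 98.7 ± 13.1 CPM and the EBM mean 227.2 ± 60.6 CPM (SD, n = 3 each), 2.30 times as high. On the log2 scale the fitted change was 1.20 (standard error 0.21, 95% interval from 0.70 to 1.70). By edgeR the unadjusted p was 7.79e-04, and adjustment over all 13352 genes gave 0.182. DESeq2, which called 175 of 12619 genes (1.39%), gave Per1 an adjusted p of 4.51e-05, and Per1 was the 1 gene it called among the 9. With edgeR on every gene with at least 1 count, which called 0.161% of 24780 genes, the adjusted p of Per1 was 0.0437. The call of Per1 therefore depended on the tool and the filter, and both gave a log2 fold change of 1.21.

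The other Period genes did not show a difference of this size. Per2, a PERIOD repressor on chromosome 1, was at 17.3, 11.4 and 20 CPM in CBM and 17.3, 18.1 and 15.1 CPM in EBM. These values overlapped fully, with EBM inside the CBM range. Per2 had a log2 fold change of 0.05 with a 95% interval from -0.47 to 0.58 (edgeR adjusted p = 0.989). Per3, the third Period gene, was at 22.0, 22.2 and 21.7 CPM in CBM and 18.9, 21.7 and 15.5 CPM in EBM. EBM values were lower or, in replicate 2, almost equal, and the log2 fold change of -0.23 had an interval from -0.59 to 0.12 (edgeR adjusted p = 0.776). The share of Per1 in the summed TPM of the Period genes was 74.5%, 82.4% and 75.3% in CBM and 85.8%, 88.2% and 92.4% in EBM. That sum itself was 65.2 to 75.4 TPM in CBM and 103.0 to 156.6 TPM in EBM.

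Per1 was set beside other clock genes by the log2 ratio of CPM within each library, for 6 ratios in all, counting Clock over Arntl below. Each ratio was given an exact permutation test over the 20 relabellings of the libraries. The ratios use Per1 values already seen to be higher in these EBM libraries, so they are no separate support. The smallest two-sided p that 3 against 3 libraries allow is 0.1. Per1 over Per3 had a mean log2 ratio of 2.15 in CBM and 3.57 in EBM, a difference of 1.42 without overlap (exact permutation p = 0.1, adjusted p = 0.15). Per1 over Per2 was 2.31, 3.29 and 2.28 in CBM and 3.27, 3.62 and 4.25 in EBM. The ranges touched, because CBM replicate 2 lay just above EBM replicate 1, and the difference of 1.09 had an exact permutation p of 0.2 (adjusted p = 0.24). The ratios of Per1 to Cry1, Cry2 and Arntl were higher in all EBM libraries than in any CBM library, by 1.18, 1.20 and 1.79 on the log2 scale, each with the smallest exact permutation p (adjusted p = 0.15).

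The Cryptochrome genes, whose proteins repress CLOCK and ARNTL together with PER, had nearly equal levels in the regions. Cry1, on chromosome 10, was at 21.5, 19.2 and 19.6 CPM in CBM and 23.4, 20.4 and 16.8 CPM in EBM. Cry2, on chromosome 2, was at 67.3, 65.1 and 67.6 CPM in CBM and 67.1, 66.7 and 62.4 CPM in EBM. The values of both genes overlapped between the regions. Cry2 was the member with the narrowest interval, as its log2 fold change of -0.03 had 95% bounds of -0.22 and 0.17 (edgeR adjusted p = 0.984). Cry1 had a log2 fold change of 0.01 with bounds of -0.35 and 0.37 (edgeR adjusted p = 0.997). Cry1 made up 35.4% to 37.6% of the summed Cry TPM in CBM and 33.8% to 39.8% in EBM.

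The activator genes, Clock and Arntl, were not shown to differ from each other in their change between the regions. Clock, which encodes the histone acetyltransferase partner of ARNTL, was at 14.1, 15.2 and 14.1 CPM in CBM and 16.9, 13.6 and 12.6 CPM in EBM. Its EBM values lay on both sides of the CBM values, and its log2 fold change of -0.01 had an interval from -0.38 to 0.36 (edgeR adjusted p = 0.997). Arntl, on chromosome 7, was at 7.57, 12.3 and 10.5 CPM in CBM and 4.20, 6.57 and 9.64 CPM in EBM. Of the EBM libraries, 1 and 2 were below all CBM libraries and 3 was within their range. Among the clock genes Arntl had the most negative log2 fold change, -0.58 with an interval from -1.37 to 0.22, and did not pass the test (unadjusted p = 0.130, edgeR adjusted p = 0.736). The log2 ratio of Clock to Arntl was 0.88, 0.30 and 0.42 in CBM and 1.98, 1.04 and 0.38 in EBM, and the regions overlapped (exact permutation p = 0.3, adjusted p = 0.3).

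**Figure D2:**
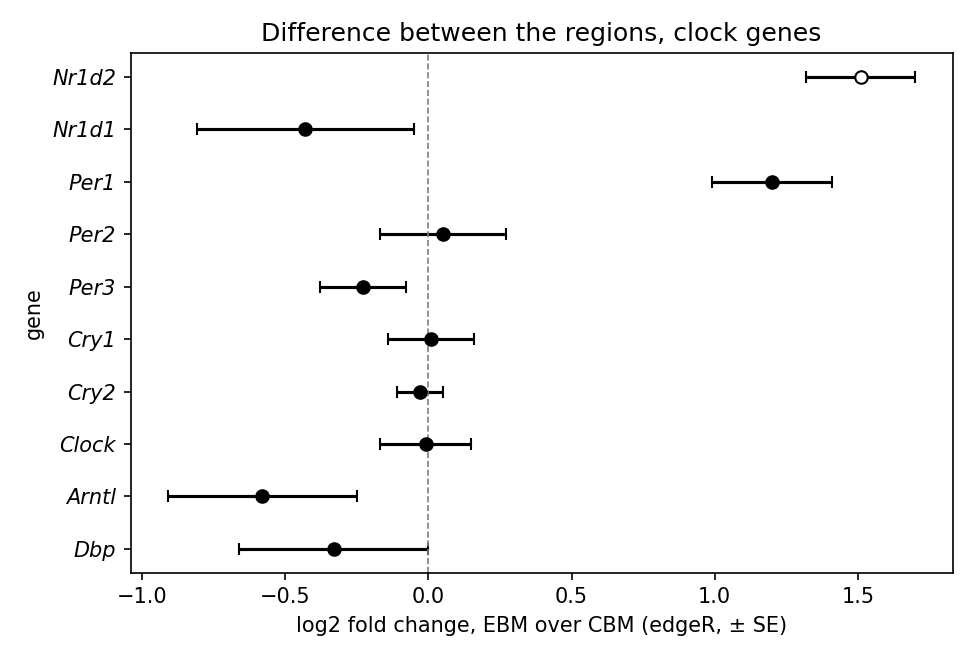
Log2 fold change of EBM over CBM for the 10 clock genes, with the standard error of the edgeR fit as bars. Nr1d2 is drawn open because it was selected on this difference. Nr1d2 at 1.51 and Per1 at 1.20 stand apart from the other 8 genes, which lie between -0.58 and 0.05.

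Nr1d1, which encodes REV-ERBα and is the paralog of Nr1d2, did not share the higher values. It had 61, 62 and 124 counts in CBM and 44, 44 and 73 in EBM. The CPM values were 3.47, 3.26 and 6.15 for CBM and 2.43, 2.45 and 4.69 for EBM. In both regions replicate 3 was the highest, and EBM replicates 1 and 2 lay below all CBM libraries. The log2 fold change was -0.43 with a 95% interval from -1.34 to 0.47 (edgeR adjusted p = 0.877). Nr1d1 shares 263 exon bases with Thra, the thyroid hormone receptor alpha gene on the opposite strand, which had up to 2314 counts in a library. Since the strand setting of the counting was not stated, some Nr1d1 counts could belong to Thra. The share of Nr1d2 in the summed TPM of both REV-ERB genes was 53.0%, 47.8% and 32.7% in CBM and 78.4%, 81.9% and 63.9% in EBM. Both genes together gave 6.33 to 9.61 TPM in CBM and 10.8 to 13.4 TPM in EBM. These shares include Nr1d2 and are a description.

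**Figure D3:**
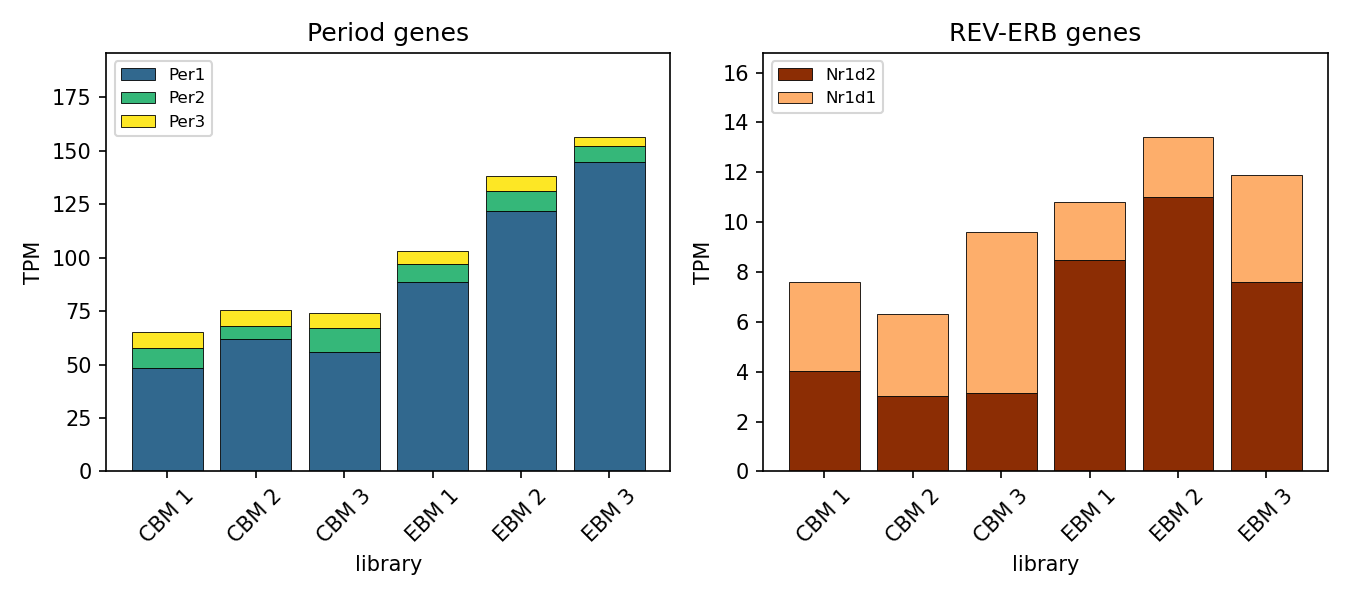
Stacked TPM of the Period genes (left) and of the REV-ERB genes (right) in each library, on linear axes from 0. Per1 makes up 74.5% to 92.4% of the Period transcripts in every library, and Nr1d2 makes up 63.9% to 81.9% of the REV-ERB transcripts in EBM against 32.7% to 53.0% in CBM.

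Dbp, the D-box factor and a direct target of CLOCK and ARNTL, was the least abundant member. It had 54, 49 and 46 counts in CBM and 54, 35 and 21 in EBM, or 3.07, 2.58 and 2.28 CPM and 2.98, 1.95 and 1.35 CPM. The regions overlapped, with 2 of the EBM libraries below CBM, and the log2 fold change of -0.33 had an interval from -1.12 to 0.46 (edgeR adjusted p = 0.907). Dbp shares 539 exon bases with Sphk2 on the opposite strand, which had up to 686 counts.

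Read across roles, the 8 known E-box targets among the members (the Per, Cry, Nr1d and Dbp genes) did not share one direction. Apart from Nr1d2 and Per1, the 95% intervals of the other 8 clock genes, activators included, ended at or below 0.58. None of these intervals therefore held the fitted log2 fold change of 1.51 of Nr1d2 or that of 1.20 of Per1. The first is the value behind the choice of the group, and the second is the highest of the 9 others. Both have intervals of their own, from 1.05 to 1.97 for Nr1d2 and from 0.70 to 1.70 for Per1. The comparison is a description, and differences between genes were not tested here.

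The other genes of the clock pathway were read from a list of 36 genes by role, of which 28 were counted highly enough to be tested. A positive log2 fold change was found for 19 and a negative one for 9, and their median was 0.07 beside 0.00 over all genes. Before adjustment 1 higher and 1 lower gene had a p under 0.05 by edgeR, and after it 0 genes did. These shares lie near the background of 4.01% and 3.90% given above.

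Of the paralogs of the activators and the receptor genes listed with them, Rorb and Npas2 had 0 counts in all libraries, and Rora and Arntl2 had no more than 3 in any. Nfil3, a D-box repressor, was at 0.121 ± 0.0559 CPM in CBM and at 0.169 ± 0.107 CPM in EBM (SD, 3 libraries each), near the floor. None of these 5 genes could be tested at this depth.

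Among the E-box repressors, Bhlhe40, which encodes DEC1, was the most abundant with 139.8 ± 91.5 CPM in the CBM and 205.6 ± 100.7 CPM in EBM. Its spread within each region was larger than the difference, and the log2 fold change of 0.56 had a standard error of 0.58 (edgeR adjusted p = 0.913). Ciart, the repressor also called CHRONO, was at 3.54 ± 1.72 CPM in the CBM and 3.67 ± 0.895 CPM in EBM. Bhlhe41 had 0 counts. The relatives of Dbp were better counted than Dbp itself, with Tef at 122.1 ± 25.5 CPM in the CBM and 115.2 ± 5.66 CPM in EBM, and Hlf at 17.1 ± 4.39 CPM and 20.8 ± 12.7 CPM.

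The genes with the smallest p were co-regulators. Sin3a, a co-repressor scaffold, was at 95.3 ± 4.55 CPM in CBM and 116.4 ± 3.27 CPM in EBM, with a log2 fold change of 0.29 (unadjusted p = 0.0107, edgeR adjusted p = 0.427). Sirt1, the deacetylase that acts on clock proteins, was at 52.8 ± 3.23 CPM in CBM and 43.1 ± 4.28 CPM in EBM, with a log2 fold change of -0.29 (unadjusted p = 0.0353, edgeR adjusted p = 0.591). Neither passed the threshold, although the regions did not overlap in either gene. Of the 28 tested pathway genes, 4 lay above and 2 below in EBM without overlap. Among all genes tested these shares were 7.47% and 7.65%. Nampt, which makes the NAD precursor that SIRT1 needs, was at 37.6 ± 4.37 CPM and 44.0 ± 1.99 CPM, and the acetyltransferase gene Ep300 at 152.4 ± 10.8 CPM and 135.0 ± 7.29 CPM. Ncor1, the co-repressor that REV-ERB receptors recruit, was at 412.1 ± 17.1 CPM in CBM and 416.7 ± 22.1 CPM in EBM, and its partner Hdac3 at 85.4 ± 6.00 CPM and 83.1 ± 7.62 CPM. Wdr5, a chromatin factor found with PER proteins, had a log2 fold change of 0.15.

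Among the genes for kinases and turnover factors of clock proteins, none passed the adjusted threshold. For Csnk1d, a kinase that marks PER for degradation, the log2 value was 0.18 (adjusted p = 0.645 by edgeR), and for the AMP kinase gene Prkaa1 it was -0.27 (adjusted p = 0.678 by edgeR). Btrc and Fbxw11, whose products are paralogous F-box proteins that bind phosphorylated PER, had log2 fold changes of -0.28 and 0.14. Timeless, listed with the E-box repressors, encodes a protein that binds CRY and replication forks, and had a log2 fold change of -0.26. None of the 5 kinases and 6 tested turnover genes was at an unadjusted p under 0.05.

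**Figure D4:**
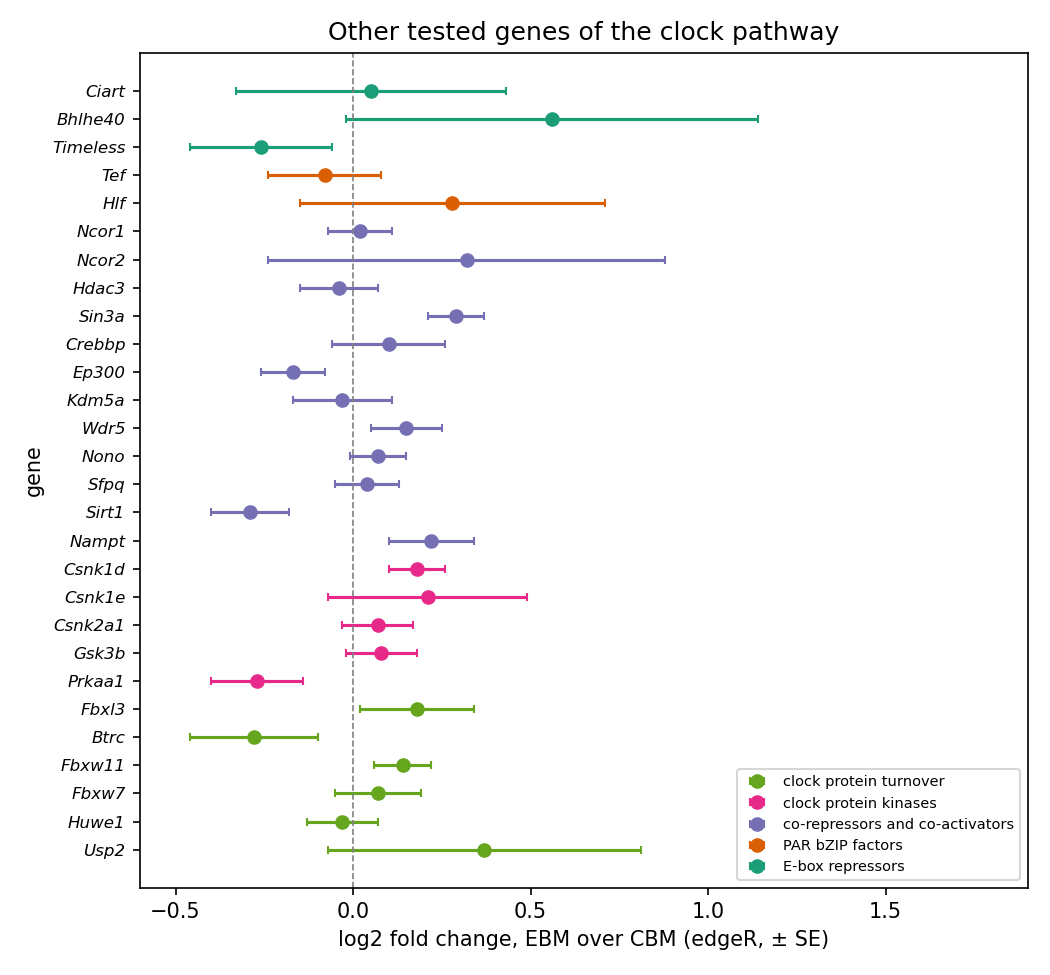
Log2 fold change of EBM over CBM for the 28 tested clock pathway genes outside the 10 members, with the standard error of the edgeR fit, colored by role. Values lie between -0.29 (Sirt1) and 0.56 (Bhlhe40), and none passed an adjusted p under 0.05.

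Per1 also belongs to the genes that answer handling and hormones, and lists of such genes without Per1 were read beside it. Among 21 tested immediate early and CREB genes, edgeR gave an unadjusted p under 0.05 for 6 higher and 1 lower gene, none of which passed after adjustment, beside shares of 4.01% higher and 3.90% lower over all genes tested, and the median log2 fold change was 0.52. Nr4a1, an orphan nuclear receptor induced through CREB, was at 6.33 ± 5.14 CPM in CBM and 46.8 ± 32.8 CPM in EBM, and its relative Nr4a3 at 0.282 ± 0.446 CPM and 5.67 ± 3.90 CPM. Dusp1, a phosphatase gene induced by stress and glucocorticoids, was at 895.9 ± 384.2 CPM in CBM and 409.6 ± 33.7 CPM in EBM. The list's summed level ranged from 5138 to 12670 CPM in CBM and from 10494 to 11945 CPM in EBM, and so overlapped.

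Of 3 tested glucocorticoid-induced genes 2 were higher at an unadjusted p under 0.05, where 4.01% of all genes tested were. Klf9, a transcription factor gene, was at 13.2 ± 1.58 CPM in CBM and 22.2 ± 5.86 CPM in EBM, and Tsc22d3, which encodes GILZ, at 62.3 ± 28.7 CPM and 113.9 ± 29.4 CPM. Sgk1, a kinase gene, was at 36.6 ± 21.8 CPM in CBM and 20.5 ± 6.34 CPM in EBM. The list's sum was 77.8 to 169.3 CPM in CBM and 126.5 to 186.4 CPM in EBM. All 6 heat shock genes had positive log2 fold changes, and 2 of them, Hspa1a and Hspa1b, had an unadjusted p under 0.05 and higher values, beside the same 4.01%. Hspa1b, which encodes an inducible HSP70 chaperone, was at 9.50, 3.74 and 3.37 CPM in CBM and 112.2, 50.3 and 58.6 CPM in EBM, with a log2 fold change of 3.74 (unadjusted p = 1.92e-04, edgeR adjusted p = 0.121). Its near-identical neighbor Hspa1a had 2 counts in every CBM library, under the floor, and 53, 50 and 22 counts in EBM (unadjusted p = 3.25e-05, edgeR adjusted p = 0.108), and reads may be split between this pair. All EBM libraries lay above all CBM libraries in both genes. Dnajb1, an HSP40 co-chaperone gene, was at 114.4 ± 10.3 CPM in CBM and 146.0 ± 25.5 CPM in EBM, where the regions overlapped. Their summed level was 2731 to 3696 CPM in CBM and 3641 to 4653 CPM in EBM. The part of handling or hormones in the values of Per1 and Nr1d2 was not tested.

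The genes whose pattern over the 6 libraries was most like that of Nr1d2, by Pearson's r of log2 CPM, were Ghitm (r = 1.0), Arf2, Slc35a2, Slc38a2 and Nfkbiz (r = 0.99 each). Their log2 fold changes were 0.36 for Ghitm, 1.29 for Arf2, 0.60 for Slc35a2, 0.53 for Slc38a2 and 2.01 for Nfkbiz. No clock gene was among them, and r to Nr1d2 was 0.86 for Per1, -0.68 for Arntl and -0.55 for Nr1d1. After each region's mean was subtracted, r to Nr1d2 was -0.35 for Per1, -0.43 for Arntl and -0.54 for Nr1d1, with the sign for Per1 turned. For Per3 r was -0.53 before and 0.63 after this step. Of 13351 genes compared, 84 had r above 0.95 and 204 had r above 0.9. The coefficients rest on only 6 libraries, which share the split by region. These coefficients are a description and carry no test.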

How the data were processed

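RNA-seq of AE9a leukemia cells covered 3 CBM and 3 EBM libraries. The authors made directional libraries from rRNA-depleted RNA, sequenced them as paired-end reads and deposited raw read counts per gene for 54532 genes. The submitters' processing notes name HISAT2 2.0.5 and mm10, and the counting tool and its strand setting are not given in the sources used here. The gene length deposited with the table was used as given for TPM.

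Genes were kept by filterByExpr (13352 genes), normalized by TMM and tested with edgeR 4.0.16 (quasi-likelihood, Benjamini-Hochberg adjustment over all genes, threshold 0.05) in R 4.3.3. The standard error is the absolute log2 fold change divided by the square root of F. Log2 CPM used a prior count of 2. The method was tested on simulated data. Alternatives were DESeq2 1.42.0, limma-voom (limma 3.58.1), other size factors and filters, the replicate block and each library left out. Replicate libraries differed beyond sampling noise (lowest chi-square divided by its degrees of freedom, 11.9). The labels do not say that replicates are separate mice, so p-values measure the spread between libraries, which may be technical. Floors cover counting error only, while the intervals of log2 fold changes come from the edgeR fit and carry the spread between libraries.

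Coordinates of all 10 clock genes were the same in GENCODE M21 (GRCm38), and promoter sequences are from RefSeq (GRCm38.p6). Named were the 10 clock genes, per direction the 5 pathway genes of smallest p, the 3 of smallest p in each context list, the 5 genes most like Nr1d2, Kit and the highest-count marker of each marker list. Other pathway genes were added after their values were seen. The members and lists were chosen with earlier results of these data known. One gene of the pathway list is not reported here by name.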

Additional observations from a re-analysis of the deposited data

How the results depend on the processing

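Over 13 alternatives the log2 fold change of Nr1d2 stayed between 1.37 and 1.65 and that of Per1 between 0.98 and 1.38, both ends from fits with a library left out. Past the adjusted threshold, 0 genes by edgeR (1056 at an unadjusted p under 0.05) became 175 with DESeq2 and 40 with every gene with at least 1 count, and both times Per1 was the 1 clock gene other than Nr1d2 called. Under the other 11 alternatives the adjusted p of Per1 lay between 0.177 and 0.809, the highest without CBM replicate 3. Whether equal replicate numbers mark paired libraries could not be decided. Deviations from the region means correlated with r of 0.68 for number 1, -0.20 for number 2 and 0.20 for number 3. With the replicate block, 2 of the 9 other clock genes were at an unadjusted p under 0.05, Per1 and Arntl (log2 fold change -0.62, unadjusted p = 0.0440, edgeR adjusted p = 0.549), and 0 passed the adjusted threshold. With each library left out in turn this count was 1 to 2, where Arntl joined without EBM replicate 3, and the count of genes past the adjusted threshold was 0 each time. Without CBM replicate 3, 678 genes had an unadjusted p under 0.05.

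Directions near 0 were not stable. The log2 fold change of Cry1 was -0.02 with upper-quartile factors, -0.0008 with the replicate block, and -0.02, -0.01 and -0.11 without CBM replicate 2, CBM replicate 3 and EBM replicate 1, and at most 0.12 with a library left out. Per2 reached -0.15 without CBM replicate 2 and -0.01 without EBM replicate 2, and at most 0.23. Clock reached 0.03 without CBM replicate 2, 0.03 without EBM replicate 2 and 0.07 without EBM replicate 3, and at least -0.14. The other clock genes kept their direction under all 13 alternatives. For Nr1d1, Arntl, Dbp and Per3, however, single libraries moved the size by over 1.5 times. At the extremes, Nr1d1 went from -0.43 to -0.08 without CBM replicate 3 and -0.83 without EBM replicate 3, Arntl from -0.58 to -0.32 without EBM replicate 1 and -0.92 without EBM replicate 3, Dbp from -0.33 to -0.67 without EBM replicate 1 and -0.11 without EBM replicate 3, and Per3 from -0.23 to -0.36 without EBM replicate 2 and -0.12 without EBM replicate 3. Low counts of Dbp and Nr1d1 limit what can be seen in them.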
